A study of Mus musculus with 4 samples.

Results

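The genes described here are 36 genes of amino acid supply to translation, 20 cytosolic aminoacyl-tRNA synthetases and 16 genes of the response driven by the transcription factor ATF4, measured in mouse Th17 cells labelled as wild type or conditional knockout for PP2A. They were chosen by name and matched to the gene names of the deposited table, which found 36 of 36 among 52636 genes. Th17 cells are helper T cells that secrete interleukin 17, and PP2A is a serine/threonine phosphatase whose catalytic subunit works together with scaffold and regulatory proteins. The study compared cells labelled PP2A WT with cells labelled PP2A cKO, with 2 RNA libraries for each genotype, to ask whether Th17 differentiation needs this phosphatase.

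Both groups were naive T cells of the C57BL/6 strain, cultured for 2 days beside irradiated antigen presenting cells with antibodies to CD3 and CD28, IL-6 at 20 ng/ml, TGF-β1 at 2 ng/ml, and blocking antibodies to IL-4 and IFN-γ. All cells then received ionomycin at 500 ng/ml with PMA at 50 ng/ml for 4 h, so that every value below is from restimulated cells. The labels do not say which PP2A subunit was deleted, by which Cre line, or at what age the mice were used. The libraries are called biological replicates without a word on how mice or cultures were kept apart, so a p-value measures the spread between these libraries, which may be technical.

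An aminoacyl-tRNA synthetase joins an amino acid to its tRNA, and each amino acid has its own enzyme, with Eprs encoding the fused enzyme for glutamate and proline and Farsa and Farsb encoding the subunits of the one for phenylalanine. When amino acids run short, uncharged tRNA activates the kinase GCN2, which phosphorylates the initiation factor eIF2. Most translation then falls while that of the Atf4 mRNA rises, and ATF4 switches on genes for amino acid synthesis, amino acid uptake and many of the synthetases. Other eIF2 kinases respond to haem loss, double-stranded RNA and misfolded protein in the endoplasmic reticulum, and in dividing T cells mTORC1 also raises ATF4 output.

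The libraries held 18517487 to 20387948 gene-assigned reads. Ppp2ca, the main PP2A catalytic gene, had 42.2 and 50.1 FPKM (fragments scaled by gene length and library depth) in WT and 41.8 and 34.5 FPKM in cKO. Its log2 fold change was -0.27 (limma, adjusted p = 0.36), and 0 of 4 PP2A catalytic and scaffold genes passed the test by limma or voom or had an unadjusted p under 0.05. Directions therefore rest on the labels of the libraries. All 9 markers of CD4 T cells and Th17 cells were detected in each library, with a summed 5009 and 4634 FPKM in WT and 4145 and 4154 FPKM in cKO. The highest WT mean of a single marker was 3212 FPKM and the median was 105 FPKM, so 1 gene makes up most of the WT sum. Single markers went both ways, with cKO wholly higher for 5 and wholly lower for 3, beside 27.2% and 28.7% of all tested genes. Their median log2 fold change was 0.28. By limma 0 of the 9 were called and 6 had an unadjusted p under 0.05, beside 1.07% and 19.8% of all tested genes. By voom 2 were called higher, beside 2.52% of all tested genes. The 6 B cell markers summed to at most 0.786 FPKM, the 8 myeloid and dendritic cell markers to at most 2.29 FPKM and the 4 NK cell markers to at most 0.105 FPKM in any library, so the genes of antigen presenting cells were near 0 in both genotypes. The CD8 T cell markers Cd8a and Cd8b1 summed to 7.61 and 8.24 FPKM in WT and to 9.28 and 10.2 FPKM in cKO. Library cKO replicate 1 stood apart: its difference from cKO replicate 2 followed the GC content of transcripts across 10550 genes (Spearman's rho = -0.53, a description over genes that are not independent), against 0.12 between the WT libraries.

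None of the 34 members that could be tested passed the threshold in either direction. The test was limma on log2(FPKM + 1), over the 10562 genes whose mean reached 1 FPKM, with Benjamini-Hochberg adjustment over all of them at 0.05. It called 1.07% of all tested genes, 0.814% higher and 0.256% lower in cKO, so none among 34 genes is near that background. At an unadjusted p under 0.05 the test marked 6 members (Ddit3, Psat1, Eif4ebp1, Pycr1, Phgdh and Cars), beside 19.8% of all tested genes. Pycr1 reached the filter only through its cKO values, so its place in that count supports nothing. An alternative that turned FPKM back into reads and used limma voom called 5.87% of the tested genes and 0 of the 34. A two-sided exact permutation test over these 4 libraries has 0.333 as its smallest p.

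The 20 synthetase genes had small differences between the genotypes. Their median log2 fold change was 0.01, beside 0.00 over all tested genes (both -0.09 with TPM scaling), and the median size of the change without its sign was 0.10 against 0.16. Single genes ran from -0.41 (Vars) to 0.32 (Dars), with 10 above and 10 below 0. Together the 20 genes took 0.463% and 0.462% of all gene reads in WT and 0.439% and 0.458% in cKO. Fewer cells making an mRNA and less of it per cell cannot be told apart in such bulk libraries.

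**Figure D1:**
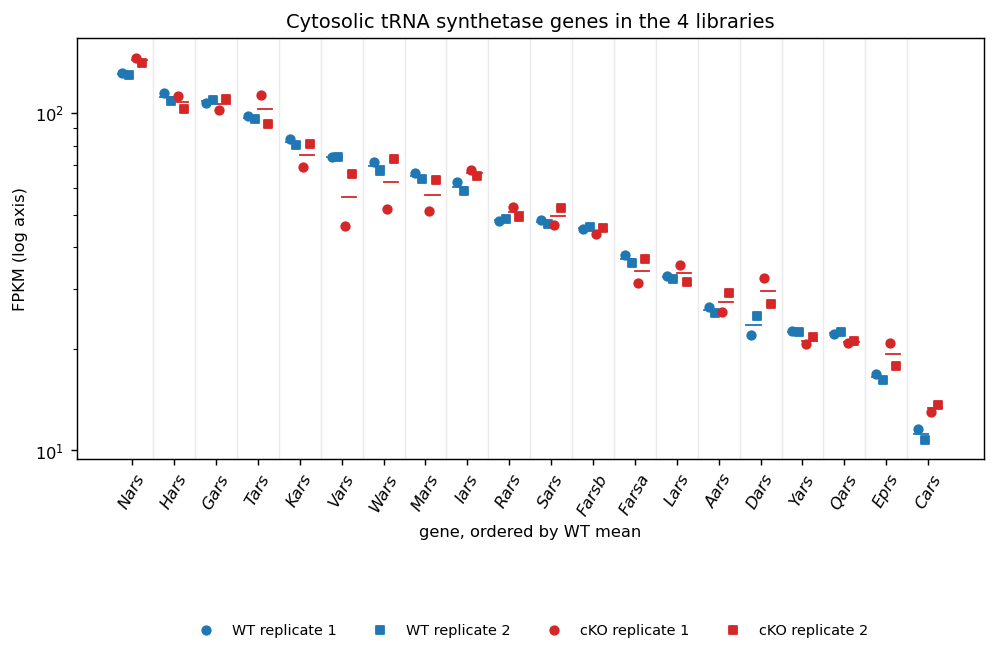
FPKM (y axis, log scale) of the 20 cytosolic tRNA synthetase genes (x axis, ordered by WT mean) in each of the 2 WT (blue) and 2 cKO (red) libraries, with short lines at the genotype means. Nars is at the top with 131 and 130 FPKM in WT and Cars at the bottom with 11.6 and 10.7 FPKM, and cKO replicate 1 (red circles) lies away from the other libraries for Vars, Wars and Mars.

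The width of the estimates sets what these libraries can say about the synthetases. The 95% intervals of the log2 fold change are on the log2(FPKM + 1) scale, which understates changes of low genes. The unadjusted interval stayed within a 2-fold change in either direction for 20 of 20 synthetases, against 93.0% of all tested genes. It stayed within a 1.5-fold change for 17 of 20, against 68.3% of all tested genes, and the exceptions were Vars (-0.88 to 0.05), Wars (-0.62 to 0.28) and Dars (0.00 to 0.65).

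The levels of the synthetases differed more than 10-fold between genes on the per-length FPKM scale. Nars, for asparagine, had the highest WT mean at 130.5 ± 1.10 FPKM (SD, n = 2), followed by Hars (111 ± 3.99 FPKM) and Gars (108 ± 1.62 FPKM), for histidine and glycine. Hars and Gars are neighbours in that order that do not differ beyond their spread in WT. At the low end were Cars, for cysteine (11.2 ± 0.567 FPKM), and Eprs (16.5 ± 0.487 FPKM). FPKM was divided by a gene length of 18102 bases for Eprs, whose longest annotated transcript has 5638 bases, and by 6583 bases for Cars, with 3222 bases, so their levels are understated beside Nars, with 2632 and 2745 bases.

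Of the 20 enzymes, 12 are known as ATF4 target genes. This set (Aars, Cars, Eprs, Gars, Iars, Lars, Mars, Nars, Sars, Tars, Wars and Yars) had a median log2 fold change of 0.06 (-0.03 with TPM scaling), with 8 genes above 0 and 4 below. The other 8 (Dars, Farsa, Farsb, Hars, Kars, Qars, Rars and Vars) had a median of -0.07 (-0.16 with TPM scaling), with 2 above and 6 below. Neither set had a called member, and the difference between the sets was not tested. The ATF4-target set had a median of 0.05 in cKO replicate 1 and 0.08 in cKO replicate 2, both against the WT mean. For the other 8 these medians were -0.08 and -0.02.

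Among the ATF4-target synthetases, Cars was nearest to a call. It had 11.6 and 10.7 FPKM in WT and 13.0 and 13.6 FPKM in cKO, a log2 fold change of 0.24 ± 0.09 (SE; limma, adjusted p = 0.242), and both cKO libraries lay above both WT libraries. Nars, from 131 and 130 FPKM to 146 and 141 FPKM (0.13), and Iars, for isoleucine, from 62.3 and 58.7 FPKM to 67.5 and 64.9 FPKM (0.13), also had groups that did not overlap. Eprs had 16.8 and 16.1 FPKM in WT and 20.8 and 17.8 FPKM in cKO (0.21, adjusted p = 0.344), again without overlap, with the higher value in cKO replicate 1. Groups without overlap are common here: 55.9% of all tested genes had them, 27.2% with cKO higher and 28.7% with cKO lower, beside 6 synthetases with cKO higher and 4 with cKO lower.

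The remaining ATF4-target synthetases had smaller or less even differences. Aars (0.07), Gars (-0.03), Lars (0.04), Sars (0.05) and Tars (0.08) had overlapping groups, with Tars at 113 and 92.7 FPKM in the cKO libraries on either side of 98.1 and 95.6 FPKM in WT. Yars, for tyrosine, had 22.5 and 22.4 FPKM in WT and 20.7 and 21.6 FPKM in cKO (-0.08). In these genes the cKO values differed little from WT or lay on both sides of it. Wars, for tryptophan and also known as an interferon-induced gene, had 71.7 and 67.1 FPKM in WT and 52.1 and 72.8 FPKM in cKO (-0.17 ± 0.18, adjusted p = 0.608), so that one cKO library was the lowest and the other the highest of the 4. Mars, for methionine, had 66.2 and 63.7 FPKM in WT and 51.3 and 63.3 FPKM in cKO (-0.18).

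Vars and Dars, outside the ATF4-target set, had the 2 extreme fold changes. Vars, for valine (chromosome 17, 35000987 to 35016322, GRCm38), had 73.96 and 74.2 FPKM in WT and 46.3 and 66.1 FPKM in cKO (-0.41 ± 0.18, adjusted p = 0.292). Dars, for aspartate (chromosome 1, 128363707 to 128417368), had 21.99 and 25.0 FPKM in WT and 32.3 and 27.1 FPKM in cKO (0.32 ± 0.13, adjusted p = 0.256). In both genes cKO replicate 1 lay farther from WT than cKO replicate 2. Vars has the most GC-rich transcript of the 20 (60.9% GC) and Dars the most AT-rich (41.2% GC).

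The other enzymes of that set had log2 fold changes from -0.14 to 0.08. Kars, for lysine, had 83.9 and 80.6 FPKM in WT and 69.0 and 80.8 FPKM in cKO (-0.14), with overlap. Farsa and Farsb, whose products pair in one enzyme, had log2 fold changes of -0.11 and -0.03. Hars (-0.05) overlapped between the genotypes, while Qars (-0.08), at 22.1 and 22.4 FPKM in WT and 20.8 and 21.1 FPKM in cKO, and Rars (0.08) did not.

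Transcript GC content ran alongside these differences in 1 of the 2 cKO libraries. Across the 20 synthetases, Spearman's rho between GC content and the difference of cKO replicate 1 from cKO replicate 2 was -0.75, and it was 0.35 for WT replicate 1 from WT replicate 2. For the difference from the mean of WT, cKO replicate 1 had a rho of -0.60 and cKO replicate 2 of -0.11. These are descriptions over genes of the same 4 libraries. In 16 of 20 synthetases (80.0%) cKO replicate 1 was farther from the WT mean than cKO replicate 2, against 65.2% of all tested genes. After removal of a smooth GC trend from each library, the log2 fold change was -0.25 for Vars and 0.26 for Dars, nearer to 0 than before, and neither passed (limma, adjusted p = 0.163 and 0.165).

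**Figure D2:**
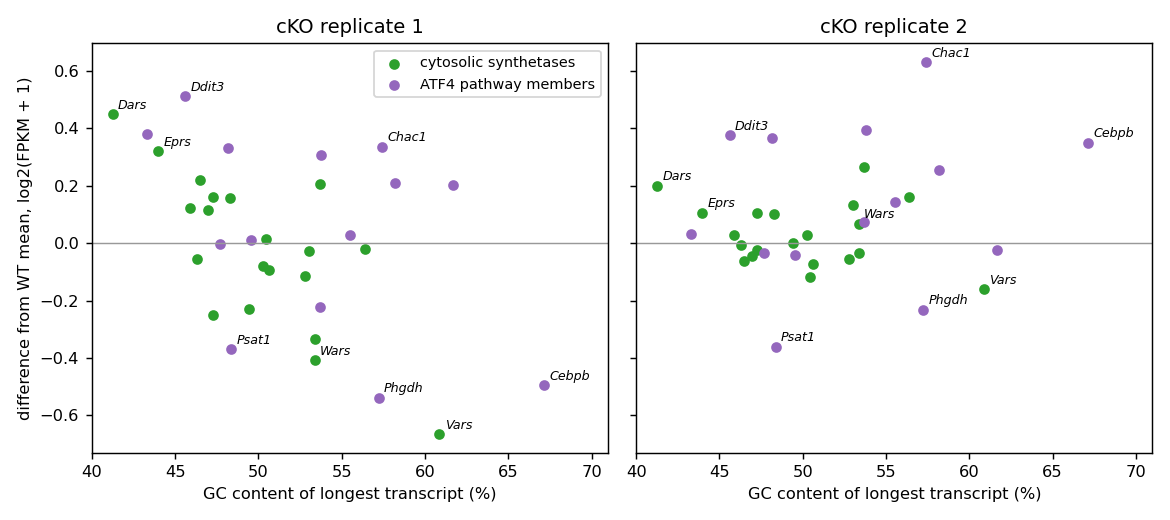
Difference from the WT mean in log2(FPKM + 1) (y axis) against the GC content of the longest transcript (x axis, percent) for the 34 tested members, in cKO replicate 1 (left) and cKO replicate 2 (right); green points are synthetases and purple points ATF4 pathway members. On the left Dars and Eprs lie above 0 and Vars, Phgdh and Cebpb below it, whereas on the right Cebpb lies above 0 and the synthetases lie between -0.16 and 0.27.

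The count of calls turned on those 2 cKO libraries. Without cKO replicate 2, which leaves cKO replicate 1 alone against both WT libraries, 6 members were called higher (Cebpg, Dars, Ddit3, Eif4ebp1, Eprs and Tars) and 7 lower (Cebpb, Kars, Mars, Phgdh, Psat1, Vars and Wars), beside 28.4% of all tested genes (13.2% higher and 15.3% lower). Without cKO replicate 1, none was called, beside 2.48% of all tested genes. In each of these fits the lone library is assumed to vary as the WT pair does. Tars, Wars and Cebpb had opposite signs in the 2 fits. They stood at 0.22, -0.41 and -0.50 with cKO replicate 1 alone, and at -0.06, 0.07 and 0.35 with cKO replicate 2 alone. The sign also differed for Aars, Aldh18a1, Atf5, Gars, Hars, Lars, Psph and Sars. These ran from -0.22 (Aldh18a1) to 0.20 (Atf5) with cKO replicate 1 alone. With cKO replicate 2 alone they ran from -0.12 (Hars) to 0.16 (Aars).

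Turning to the ATF4 response, the mRNA of the regulator itself was abundant in both genotypes. Atf4 (chromosome 15, 80255184 to 80257540) had 172 and 171 FPKM in WT and 175 and 189 FPKM in cKO, a log2 fold change of 0.08 ± 0.10 with a 95% interval of -0.17 to 0.34 (limma, adjusted p = 0.654). ATF4 is controlled mainly at translation, so its mRNA is no measure of its protein. Atf5, a related factor under the same translational control, had 6.26 and 6.99 FPKM in WT and 7.75 and 6.49 FPKM in cKO (0.09). Of its exon bases, 4.11% overlap Nup62, a gene of 67.5 FPKM on the other strand. Cebpg, which encodes a dimer partner of ATF4, had 7.98 and 7.67 FPKM in WT and 10.5 and 8.03 FPKM in cKO (0.21, adjusted p = 0.439). Cebpb, another C/EBP partner, had 3.57 and 3.17 FPKM in WT and 2.09 and 4.56 FPKM in cKO, with the lowest and the highest value both in cKO. Its log2 fold change was -0.07, and 0.14 after the GC correction. It has the most GC-rich transcript of the members (67.2% GC), and 20.7% of its exon bases overlap Tmem189 on the other strand, whose reads cannot be told apart without a stated strand setting.

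**Figure D3:**
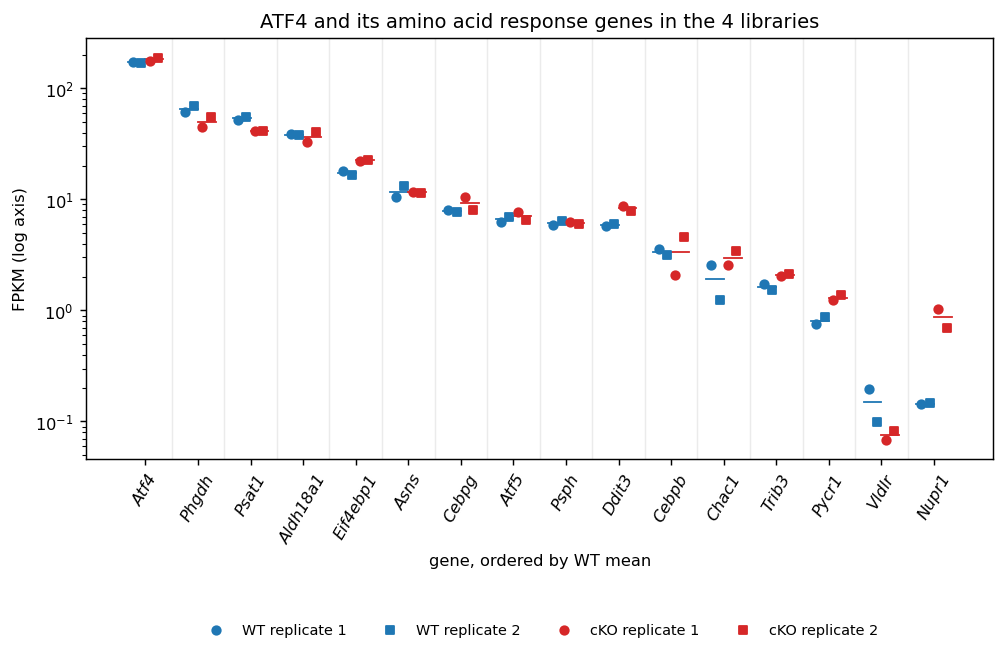
FPKM (y axis, log scale) of the 16 ATF4 pathway members (x axis, ordered by WT mean) in each of the 2 WT (blue) and 2 cKO (red) libraries, with short lines at the genotype means. Atf4 is at the top. Atf4, Cebpg, Ddit3, Eif4ebp1, Nupr1, Pycr1 and Trib3 have both red points above both blue points, and Phgdh, Psat1 and Vldlr have both below.

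Ddit3, Trib3, Chac1 and Eif4ebp1 had higher means in cKO, and none of these 4 passed the test. Ddit3 (chromosome 10, 127290774 to 127296288), which encodes the pro-apoptotic factor CHOP, had 5.73 and 5.96 FPKM in WT and 8.76 and 7.89 FPKM in cKO, from 192 and 195 reads and from 305 and 262 reads. Both cKO libraries were above both WT libraries, and the mean ratio was 1.42. Its log2 fold change of 0.45 ± 0.09 had the lowest p of the members (limma, adjusted p = 0.0924). It passed after the GC correction (0.43, adjusted p = 0.0427), a fit that called 2.7% of all tested genes higher, but not by voom (0.47, adjusted p = 0.116) or without any one library but cKO replicate 2 (adjusted p = 0.0879 to 0.541). Its exons overlap those of Mars by 68 bases on the other strand, 3.97% of its exon length.

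Trib3, a pseudokinase gene induced by ATF4 and CHOP, had 1.73 and 1.53 FPKM in WT and 2.04 and 2.14 FPKM in cKO (0.23, adjusted p = 0.315). Chac1, which encodes a glutathione-degrading enzyme and is often used as a marker of ATF4 output, had 2.59 and 1.25 FPKM in WT and 2.59 and 3.40 FPKM in cKO (0.48 ± 0.25, adjusted p = 0.347). Its groups overlapped, since WT replicate 1 and cKO replicate 1 were nearly equal. Its interval of -0.15 to 1.12 is the one among the 34 that reaches past a 2-fold change on the log2(FPKM + 1) scale. That scale understates changes of low genes, so intervals of other low members may be too narrow as fold changes. Eif4ebp1, which encodes the translation repressor 4E-BP1, had 18.2 and 16.7 FPKM in WT and 22.2 and 22.7 FPKM in cKO (0.35 ± 0.09, adjusted p = 0.136), with no overlap.

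Nupr1 had the largest ratio of the members, at few reads. This gene (chromosome 7, 126623249 to 126630861) encodes a small stress-induced chromatin protein. It had 0.142 and 0.146 FPKM in WT and 1.04 and 0.697 FPKM in cKO, from 7 and 7 reads and from 53 and 34 reads, and both cKO libraries lay above both WT libraries. The mean ratio was 6.02. Its mean fell under the filter of 1 FPKM, so the limma test above did not include it. Voom on all genes of at least 20 reads, an alternative added after the data were seen that called 2.54% of genes higher, called it too, with a log2 fold change of 2.45 ± 0.44. It has 7 reads in each WT library and reached 20 only through its cKO reads, so that call is no support for a difference and the reads stand as a description. limma without the filter gave 0.70 on the log2(FPKM + 1) scale (adjusted p = 0.2), where it called no gene at all while 3012 of 21807 had an unadjusted p under 0.05.

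Vldlr, a lipoprotein receptor gene and the other member under the filter, had 0.198 and 0.0988 FPKM in WT and 0.0684 and 0.0819 FPKM in cKO, from 39, 19, 14 and 16 reads. Each cKO value was below each WT value, and the voom log2 fold change of -0.93 ± 0.44 did not pass (adjusted p = 0.258).

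**Figure D4:**
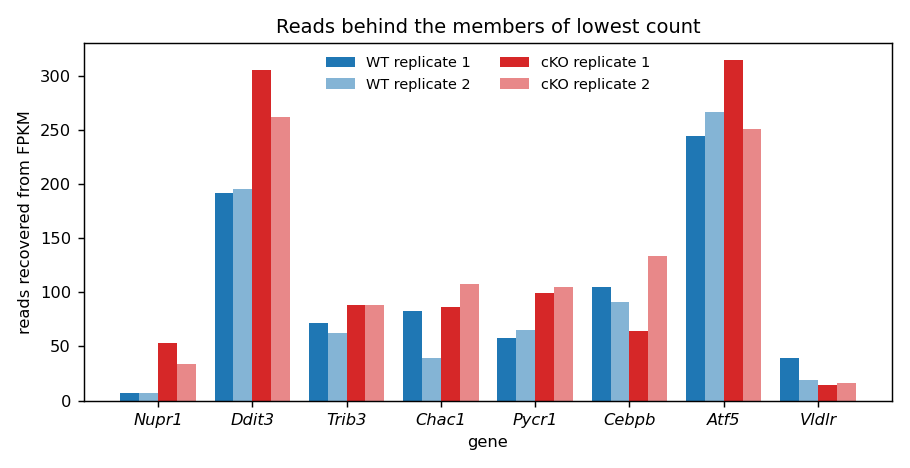
Reads recovered from FPKM (y axis, from 0) for 8 members with few reads (x axis), as bars for the 2 WT (blue) and 2 cKO (red) libraries. Nupr1 has 7 reads in each WT library against 53 and 34 in cKO, and Chac1 and Cebpb differ as much within a genotype as between genotypes.

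Among the enzymes of amino acid synthesis, means were lower in cKO for Phgdh and Psat1 and higher for Pycr1. Serine is made from a glycolytic intermediate by the products of Phgdh, Psat1 and Psph in that order. Phgdh (chromosome 3, 98313170 to 98339990) had 61.6 and 68.9 FPKM in WT and 44.5 and 55.3 FPKM in cKO (-0.39 ± 0.14, limma, adjusted p = 0.227). Psat1 (chromosome 19, 15904678 to 15947337) had 52.2 and 54.99 FPKM in WT and 41.2 and 41.5 FPKM in cKO (-0.37 ± 0.09, adjusted p = 0.125).

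For both enzymes each cKO library lay under each WT library, and the 2 cKO values of Psat1 were nearly the same, with a mean ratio of 0.771. voom gave -0.41 for Psat1 (adjusted p = 0.0591) and the GC correction -0.37 (adjusted p = 0.0655), still short of the threshold. Psph had 5.89 and 6.41 FPKM in WT and 6.20 and 5.94 FPKM in cKO (-0.02), and 10.4% of its exon bases overlap Cct6a, a gene of 115 FPKM on the other strand. The step after serine has Shmt2, looked at for this reason after its values were seen. It had 104 and 106 FPKM in WT and 68.3 and 86.9 FPKM in cKO (-0.44, limma, adjusted p = 0.186). Shmt2 belongs to the 20 other ATF4 targets tested below, whose lowest log2 fold change was also -0.44, with a median of -0.06.

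Asns, the asparagine synthetase gene and a classic ATF4 target, had 10.5 and 13.1 FPKM in WT and 11.7 and 11.4 FPKM in cKO (-0.02, 95% interval -0.34 to 0.30), with the cKO values inside the WT range. Proline is made by the products of Aldh18a1 and Pycr1, and these differed in sign. Aldh18a1 had 38.9 and 37.7 FPKM in WT and 32.7 and 40.4 FPKM in cKO (-0.07). Pycr1 had 0.753 and 0.865 FPKM in WT and 1.24 and 1.38 FPKM in cKO (0.35 ± 0.12), a mean ratio of 1.62 without overlap from 58 and 65 reads in WT and 99 and 105 reads in cKO. Both WT values are under 1 FPKM, so its mean passed the filter only through cKO and its test is not used.

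**Figure D5:**
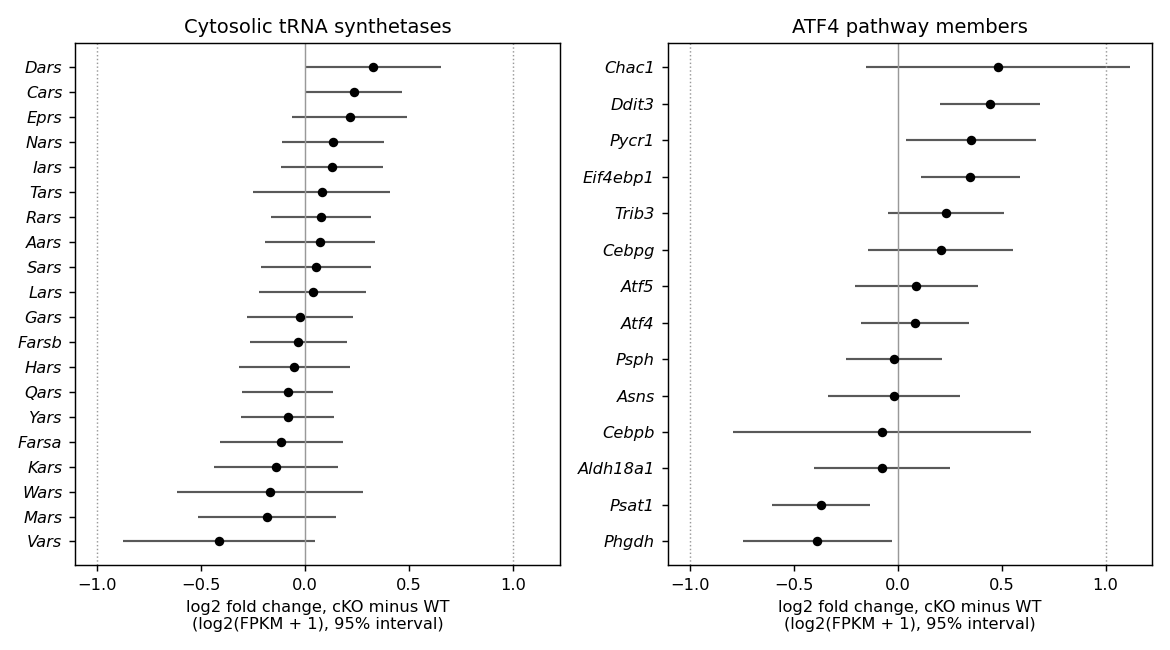
Log2 fold change of cKO over WT on the log2(FPKM + 1) scale (x axis) with its 95% interval. The left panel has the 20 synthetases and the right panel the 14 tested ATF4 pathway members. Dotted lines mark a 2-fold change on that scale, which understates changes of low genes. The interval of Chac1 reaches past the right dotted line, those of Ddit3, Eif4ebp1 and Cars lie above 0 and those of Psat1 and Phgdh below it, before adjustment. The interval drawn for Pycr1 is not used, since its mean passed the filter only through cKO.

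As a list, the 14 tested ATF4 pathway members had a median log2 fold change of 0.09 (0.01 with TPM scaling) and a median size of 0.22, against 0.00 and 0.16 over all tested genes. Of these, 8 were above 0, Pycr1 among them, and 6 below. The median also counts Pycr1, whose mean passed the filter only through cKO. The groups did not overlap for 6 on the higher side, again with Pycr1, and 2 on the lower side. Over all tested genes these shares were 27.2% and 28.7%. The 8 of 14 together are near the 55.9% of all tested genes. Single values ran from -0.39 (Phgdh) to 0.48 (Chac1).

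The promoters of the members were searched for the C/EBP-ATF composite element, the site that ATF4 is known to bind with C/EBP partners. RefSeq windows (GRCm38.p6) from 250 bases before to 50 bases after a start site were searched for 28 of the 36 members. Cars, Hars, Lars, Nars, Rars, Vars, Wars and Eif4ebp1 were not searched. The letters TGATGNAA were sought on both strands, and separately TTGCATCA, whose reverse strand is one form of the first motif, so every match of the second is also one of the first. The first was in 11 of 28 members (39.3%) and the second in 8 of 28 (28.6%), beside 4.51% and 1.03% of the 27025 genes in the table. Many members were picked as known ATF4 targets, so this share in part describes that choice. Of the 8 stricter matches, 7 are shown because they let the shared letters be read beside unequal fold changes. Capitals mark the match, and each line reads 5′ to 3′ on the gene's strand.
Nupr1, chr7:126625562-126625591, minus strand: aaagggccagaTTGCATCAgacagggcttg
Chac1, chr2:119351038-119351067, plus strand: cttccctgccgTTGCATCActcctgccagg
Pycr1, chr11:120643833-120643862, minus strand: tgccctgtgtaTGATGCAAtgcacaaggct
Vldlr, chr19:27216809-27216838, plus strand: agcagcaatagTTGCATCAgcgctcctagc
Iars, chr13:49682126-49682155, plus strand: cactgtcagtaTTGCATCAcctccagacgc
Tars, chr15:11399655-11399684, minus strand: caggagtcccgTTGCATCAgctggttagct
Yars, chr4:129189895-129189924, plus strand: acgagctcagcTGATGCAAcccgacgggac

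The match began 110 bases before the RefSeq start site in Nupr1, 193 in Chac1, 103 in Pycr1 and 15 in Tars. It began 200 bases before 1 of 2 start sites in Vldlr, and at base 8 and base 4 of the transcript in Iars and Yars. In Nupr1 the match lies inside the gene span given above, so the start site used is not the outer end of that span. The genes shown did not share a direction. The log2 fold change was 0.48 for Chac1, 0.35 for Pycr1, 0.13 for Iars, 0.08 for Tars and -0.08 for Yars. Nupr1 was on the higher and Vldlr on the lower side. Over tested members the median was 0.08 for the 9 with the first motif and -0.03 for the 17 with none in the window, a description with no test. The 9 include Pycr1, whose mean passed the filter only through cKO. Ddit3 (0.45), Psat1 (-0.37) and Phgdh (-0.39) held neither motif in the window. Gars (-0.03) and Trib3 (0.23) held the first motif but not the second, beginning 30 bases before the start site and at base 15 of the transcript. In Asns the first motif began 23 bases before the start site, as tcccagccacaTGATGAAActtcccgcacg (chr6:7693214-7693243, minus strand), beside a log2 fold change of -0.02.

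The wider pathway held 1 called gene. A list of 16 genes held the eIF2 kinases, the eIF2 phosphatase subunits, eIF2 and its exchange factor eIF2B, with Gcn1l1 and Impact added. Of these, 1 was called higher and none lower, beside 0.814% and 0.256% of all tested genes. A single call says little about the list, whose median log2 fold change was -0.04. The called gene was Eif2ak2, which encodes PKR, an eIF2 kinase activated by double-stranded RNA and itself an interferon-induced gene. It had 2.46 and 2.69 FPKM in WT and 6.09 and 5.45 FPKM in cKO, and both cKO libraries were more than 2 times each WT library. It rose by 0.92 ± 0.10 (log2 fold change; limma, adjusted p = 0.0381), and by voom by 1.12 (adjusted p = 0.0093). The call was lost on leaving out either WT library (adjusted p = 0.107 and 0.108), with TPM scaling (0.0637) and without the filter (0.172).

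Other lists of the pathway had no called gene. Of 30 other ATF4 targets 20 were tested, with a median log2 fold change of -0.06. Of the 20, 7 had an unadjusted p under 0.05, beside 19.8% of all tested genes. The largest difference was that of Ddit4, an mTORC1 inhibitor gene, with 46.2 and 45.2 FPKM in WT and 66.2 and 61.2 FPKM in cKO (0.47 ± 0.10, limma, adjusted p = 0.0889). It did not pass by voom (0.44, adjusted p = 0.0509), or by limma with TPM scaling (adjusted p = 0.118) or the replicate block (adjusted p = 0.172). It passed by voom on genes of at least 20 reads (0.44, adjusted p = 0.0491). That fit was added after the data were seen and called 2.54% of genes higher. The 17 mitochondrial synthetases had a median of -0.11, with 10 genes below 0. Of the 17, 3 had an unadjusted p under 0.05, beside the same 19.8% of all tested genes. Sars2 had the largest difference, with 14.5 and 16.0 FPKM in WT and 9.14 and 13.5 FPKM in cKO (-0.42 ± 0.19, adjusted p = 0.292). Their summed level was 99.0 and 100.3 FPKM in WT and 83.8 and 92.5 FPKM in cKO. The 11 genes of the multisynthetase complex, which holds 8 of the cytosolic synthetases and 3 scaffold proteins, had a median of 0.08, none at an unadjusted p under 0.05, and Dars had the largest difference. The test called 0 genes of these 3 lists, beside 1.07% of all tested genes. So did voom on the genes of at least 1 FPKM, beside 5.87%.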

How the data were processed

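The authors deposited FPKM values per gene for 4 libraries, with gene lengths. The submitters' processing notes name featureCounts 1.5.0-p3 and, as genome builds, GRCm38 and mm10. Aligner, annotation release, strand setting and FPKM tool were not given in the sources used here. FPKM times gene length gave whole reads for 100% of values above 0 (tolerance 0.01 read).

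Genotypes were compared on log2(FPKM + 1), a scale that understates changes of low genes, by limma 3.58.1 (R 4.3.3) for genes whose mean reached 1 FPKM, cKO minus WT, with a variance trend, Benjamini-Hochberg adjustment at 0.05, two-sided, no block. It was tested on simulated data. All 36 members are named; from each other list of the pathway, up to 3 genes past the threshold per direction, or the most changed one. Members and lists were chosen with earlier results of these data known. Transcript GC content came from GENCODE M21, promoters from RefSeq; the promoter matches of 1 gene are not reported here. Alternatives were other pseudocounts, filters and scalings, voom, a replicate block, a GC correction and the omission of each library; voom on genes of at least 20 reads was added after seeing the data.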

Additional observations from a re-analysis of the deposited data

How the results depend on the processing

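With 2 libraries per genotype, counts of calls moved with nearly every setting. Over all genes, 86 were higher and 27 lower. These counts were 266 and 354 by voom, 352 and 427 by voom on genes of at least 20 reads, 285 and 238 after the GC correction, 25 and 1 with TPM scaling, and 0 and 0 without the filter, where 3012 of 21807 genes had an unadjusted p under 0.05. A pseudocount of 0.1 left 15 lower genes. The replicate numbers mark no shared source in the labels, and same-numbered libraries did not deviate together (correlation -0.09). With the replicate block the counts were 154 and 73, and with the block and the GC correction 194 and 98. These 2 fits called 0 members, beside 2.15% and 2.77% of all genes. At an unadjusted p under 0.05 they marked 4 and 8 of 34 members, beside 1779 of 10562 and 2188 of 10550 genes. Leaving out 1 library at a time gave 49 to 1390 higher and 6 to 1614 lower genes.

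Over the same omissions, 0 to 3 synthetases were higher and 0 to 4 lower, of which 0 to 2 and 0 to 2 were ATF4 targets and 0 to 1 and 0 to 2 were others, and 0 to 3 ATF4 pathway members were higher and 0 to 3 lower. All of these calls came without cKO replicate 2. The ATF4 pathway list had 1 gene higher after the GC correction (Ddit3) and 1 by voom on genes of at least 20 reads (Nupr1, which reached that filter only through its cKO reads).

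The median log2 fold change of the synthetases ran from -0.023 to 0.019 over the omissions, and was -0.087 with TPM scaling, which moved the median of all genes to -0.09, and -0.032 in both voom fits. That of the ATF4-target synthetases ran from 0.037 to 0.086, and was -0.030 with TPM scaling and 0.025 in both voom fits. The other synthetases ran from -0.082 to -0.016, with -0.16 and -0.11 in the same fits. The ATF4 pathway list ran from 0.056 to 0.14, and was 0.035 with the filter of 5 FPKM, 0.0083 with TPM scaling, 0.057 in both voom fits and 0.16 after the GC correction with or without the block. The cause of these shifts was not tested.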
